A study of Mus musculus with 20 samples.

Results

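The 9 genes described here encode subunits of polycomb repressive complex 1 (PRC1): Ring1, Rnf2, Bmi1, Pcgf2, Cbx2, Cbx6, Cbx7, Cbx8 and Phc1. They were taken as a named list from the 46603 gene identifiers in the count files and matched by symbol to the GENCODE M21 annotation of the mouse genome (mm10). All 9 were found and all 9 were among the 14661 genes with enough counts to be tested. RNA was sequenced from the livers of 10 male mice aged 2 months and kept on standard chow, 5 of them C57BL/6J wild type (WT) and 5 EedHepKO (KO). In the KO mice a Cre transgene under the albumin promoter (Alb:Cre) acted on an Eed allele with loxP sites beside exons 3 and 6 (Eedflox). The albumin promoter drives Cre in hepatocytes and is also active in the fetal precursors that they share with bile duct cells. Lobes 1, 2 and 3 of each mouse, taken when the liver was resected (partial hepatectomy, PHx), gave the baseline sample, and lobes 4, 5 and 6 gave a sample later, which made 4 groups of 5 samples. The samples after PHx were collected at 30 h (1 mouse per genotype), 40 h (2 mice) and 48 h (2 mice). The WT mice were bought and the KO mice bred from crosses, and no Cre-only or flox-only control was among the samples, so the genotype cannot be told apart from the colony. The response to PHx cannot be told apart from the lobes sampled.

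Polycomb group proteins keep genes silent through marks on histones. PRC2, of which EED is a core subunit, methylates histone H3, and PRC1 places a single ubiquitin on histone H2A. In canonical PRC1 a RING protein (RING1 or RNF2, also called RING1A and RING1B) carries the ubiquitin ligase activity and pairs with a PCGF protein (BMI1, also called PCGF4, or PCGF2, also called MEL18). A CBX protein binds methylated H3 through its chromodomain, and a PHC protein links complexes together through its SAM domain. Variant PRC1 complexes hold RYBP or YAF2 in place of a CBX and do not need methylated H3 to find their targets. The comparison of KO with WT asks how the transcripts of these PRC1 subunits stand in liver where Cre acted on Eed, at rest and after resection. These RNA data measure neither EED protein nor methylated H3.

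In resting liver 2 of the 9 transcripts were higher in KO than in WT. Cbx6 was 4.33-fold higher and Bmi1 1.65-fold higher. After PHx these 2 and also Rnf2 (2.58-fold) and Phc1 (2.21-fold) were higher in KO. None of the 9 was called lower in KO at either stage, and Ring1, Pcgf2, Cbx2 and Cbx8 passed the test in no comparison over all samples. A gene is called here when its adjusted p is under 0.05 in the quasi-likelihood test of edgeR, with Benjamini-Hochberg adjustment over all 14661 genes. Of all genes tested, 11.1% were called higher and 4.89% lower in KO at baseline, and 16% were called higher and 8.20% lower after PHx. Leaving out 1 sample moved the count of genes called lower from 717 to between 309 (without KO replicate 7) and 724 at baseline, and from 1202 to between 757 (without KO replicate 7) and 2151 (without KO replicate 10) after PHx. The median log2 fold change of the 9 genes was 0.45 at baseline and 0.59 after PHx, against -0.03 and -0.01 over all genes. Bulk RNA cannot tell a change in the number of cells of a type from a change in RNA per cell, and the p-values measure the spread between these samples.

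**Figure D1:**
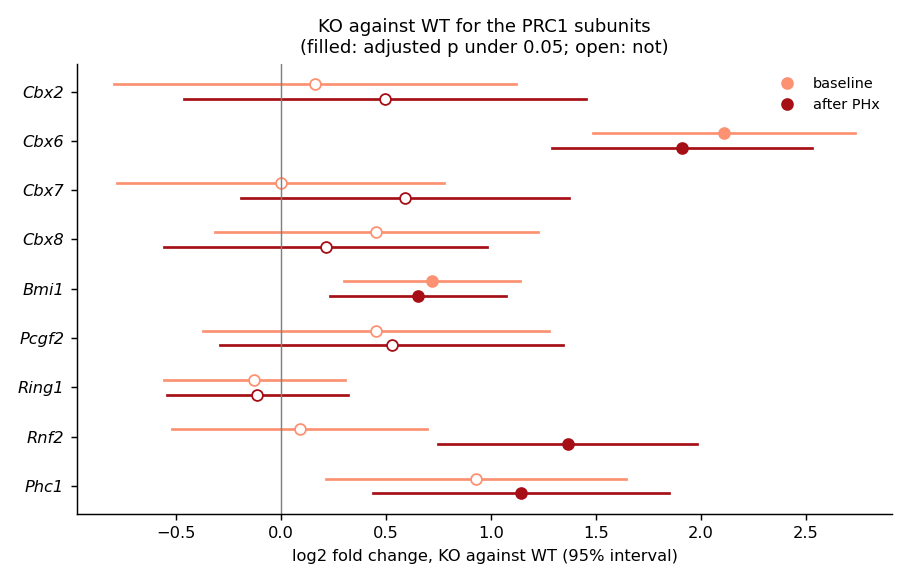
Log2 fold change of KO against WT (x axis) for the 9 PRC1 subunit genes (y axis), at baseline (light) and after PHx (dark), with bars for the 95% interval of the edgeR fit; filled circles have an adjusted p under 0.05. Cbx6 and Bmi1 are filled at both stages, with Cbx6 at 2.11 and 1.91, and Rnf2 and Phc1 are filled after PHx only.

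Total counts ran from 21634890 to 30461351 per library, and the lowest group sum among the 9 genes was 197 counts (Phc1 in WT at baseline). Values per sample are counts scaled to a TMM-adjusted library total (CPM). Eed itself ranged from 14.6 to 23.2 CPM in the 10 WT samples and from 2.75 to 7.52 CPM in the 10 KO samples, which did not overlap. No marker of any cell type list was at 0 in a group. Of 10 hepatocyte markers 4 were called lower in KO at baseline and 2 after PHx, and their summed level at baseline was 86340 to 117400 CPM in KO against 141900 to 162800 in WT. At baseline 7 of 10 stellate cell and fibroblast markers, 4 of 10 macrophage markers and 1 of 7 tested cholangiocyte markers were called higher in KO. The summed stellate and fibroblast level was 454.8 to 634.7 CPM in KO against 169.4 to 277.2 in WT, and the summed macrophage level 423.1 to 565.9 against 170.7 to 292.6. After PHx 5 of 10 stellate markers, 5 of 7 cholangiocyte markers and 1 of 10 macrophage markers were called higher in KO. Of 10 endothelial markers 1 was called higher at each stage, and of 7 tested lymphocyte markers none with edgeR (1 at each stage had an unadjusted p under 0.05). KO replicate 10 after PHx, collected at 40 h, stood apart in its 20 G2M phase genes, with a summed level of 1274 CPM against 20.2 to 159.4 in the other 4 KO samples. Among WT samples the summed G2M level after PHx was highest in replicate 5 (2286 CPM, 48 h) and replicate 1 (458.9 CPM, 30 h). At baseline 3 of the 20 G2M genes and none of 20 S phase genes were called higher in KO, and none of either list after PHx. The summed G2M level at baseline was 51.64 to 241.8 CPM in KO against 4.862 to 11.05 in WT, and 18 of the 20 genes had an unadjusted p under 0.05. Calls that change without KO replicate 10 after PHx are given with and without it.

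The promoters of 4 of the genes are shown as the 250 bases before the start of the gene in RefSeq, because they set beside each other the RING pair (Rnf2, which was higher in KO after PHx, and Ring1, which was not called) and the PCGF pair (Bmi1, higher in KO at both stages, and Pcgf2, not called). The sequences are from RefSeq on GRCm38.p6, written 5′ to 3′ on the strand of the gene, with CG dinucleotides, the sites of DNA methylation, in capitals.
Rnf2, chr1:151500992-151501241, minus strand: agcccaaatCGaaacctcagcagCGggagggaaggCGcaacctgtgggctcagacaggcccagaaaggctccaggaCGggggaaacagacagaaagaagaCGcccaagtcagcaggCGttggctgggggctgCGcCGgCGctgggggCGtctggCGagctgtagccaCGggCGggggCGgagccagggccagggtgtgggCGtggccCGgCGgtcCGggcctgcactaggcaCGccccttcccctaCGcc
Ring1, chr17:34024681-34024930, minus strand: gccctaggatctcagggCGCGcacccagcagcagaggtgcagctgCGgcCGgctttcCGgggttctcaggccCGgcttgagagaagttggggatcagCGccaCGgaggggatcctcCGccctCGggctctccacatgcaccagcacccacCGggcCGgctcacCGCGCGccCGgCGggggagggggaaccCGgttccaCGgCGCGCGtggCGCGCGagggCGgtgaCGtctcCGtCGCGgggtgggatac
Bmi1, chr2:18676768-18677017, plus strand: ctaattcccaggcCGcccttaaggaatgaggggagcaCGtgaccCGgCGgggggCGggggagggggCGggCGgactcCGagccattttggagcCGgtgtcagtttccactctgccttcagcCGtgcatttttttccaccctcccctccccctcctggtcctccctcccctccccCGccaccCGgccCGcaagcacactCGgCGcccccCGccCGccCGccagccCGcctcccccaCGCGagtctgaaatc
Pcgf2, chr11:97699649-97699898, minus strand: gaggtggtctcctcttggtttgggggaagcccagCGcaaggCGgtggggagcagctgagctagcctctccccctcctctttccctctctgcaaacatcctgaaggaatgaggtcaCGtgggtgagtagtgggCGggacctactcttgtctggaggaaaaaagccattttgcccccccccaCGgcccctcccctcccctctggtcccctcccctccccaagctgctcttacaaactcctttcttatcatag
The Rnf2, Ring1 and Bmi1 windows held 20, 30 and 21 CG dinucleotides and the Pcgf2 window 5, against a median of 6 over 32851 promoters of the same length. The Pcgf2 window lies within the gene span that GENCODE gives, which starts farther upstream. Beyond these, Cbx6, Cbx7, Cbx8 and Phc1 also matched the RefSeq table, with 20, 23, 22 and 8 CG dinucleotides, and Cbx2 did not match. By GENCODE all 250 bases of the Cbx6 and Phc1 windows, 122 of Cbx7 and 56 of Cbx8 lie in exons, so these windows are not upstream sequence alone. The 4 genes called in KO against WT thus had from 8 to 21 and the 4 matched genes not called in either comparison from 5 to 30, and these ranges overlap. The E-box CACGTG, which reads the same on both strands, was in the windows of Cbx6, Cbx8, Bmi1 and Pcgf2, starting 26, 98, 215 and 137 bases before the start, and in 6.02% of all promoters. Neither TTTCCCGC nor TTTGGCGC, a pair of forms of the E2F site searched on both strands and held by 0.895% and 0.417% of all promoters, was in any of the 8 windows.

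Levels between genes were compared per kilobase of exon, with all annotated exons of a gene joined. For Cbx6 these make up 10609 of the 10793 bases of its span, so its place in the order depends on this length. In CPM Cbx6 had a mean of 3.25 in WT at baseline, where Phc1 ran from 1.25 to 2.80. In WT at baseline Bmi1 (5.42 ± 0.73 CPM per kb, SD, n = 5), Rnf2 (4.89 ± 0.68) and Ring1 (4.63 ± 0.78) formed the upper level, with ranges that overlapped each other and lay above those of the other 6 genes. Cbx8 (1.47 ± 0.47), Cbx2 (1.41 ± 0.56), Pcgf2 (1.17 ± 0.26) and Cbx7 (1.01 ± 0.09) followed with ranges that overlapped their neighbours. Phc1 (0.38 ± 0.11) and Cbx6 (0.31 ± 0.03) were lowest, overlapped each other and lay below Cbx7. In KO at baseline Bmi1 (8.93 ± 1.29) stood above Rnf2 (5.21 ± 0.94) with no overlap, and Cbx6 (1.33 ± 0.17) lay between Cbx2 (1.58 ± 0.46) and Cbx7 (1.01 ± 0.21), overlapping both. After PHx in WT Bmi1 (6.69 ± 1.48) stood above Rnf2 (3.95 ± 0.92), and Cbx6 (0.26 ± 0.08) was lowest and apart from Phc1 (0.64 ± 0.24). After PHx in KO the ranges of all neighbours in the order overlapped, from Bmi1 (10.5 ± 3.17) and Rnf2 (10.2 ± 5.20) down to Cbx6 (0.98 ± 0.57).

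**Figure D2:**
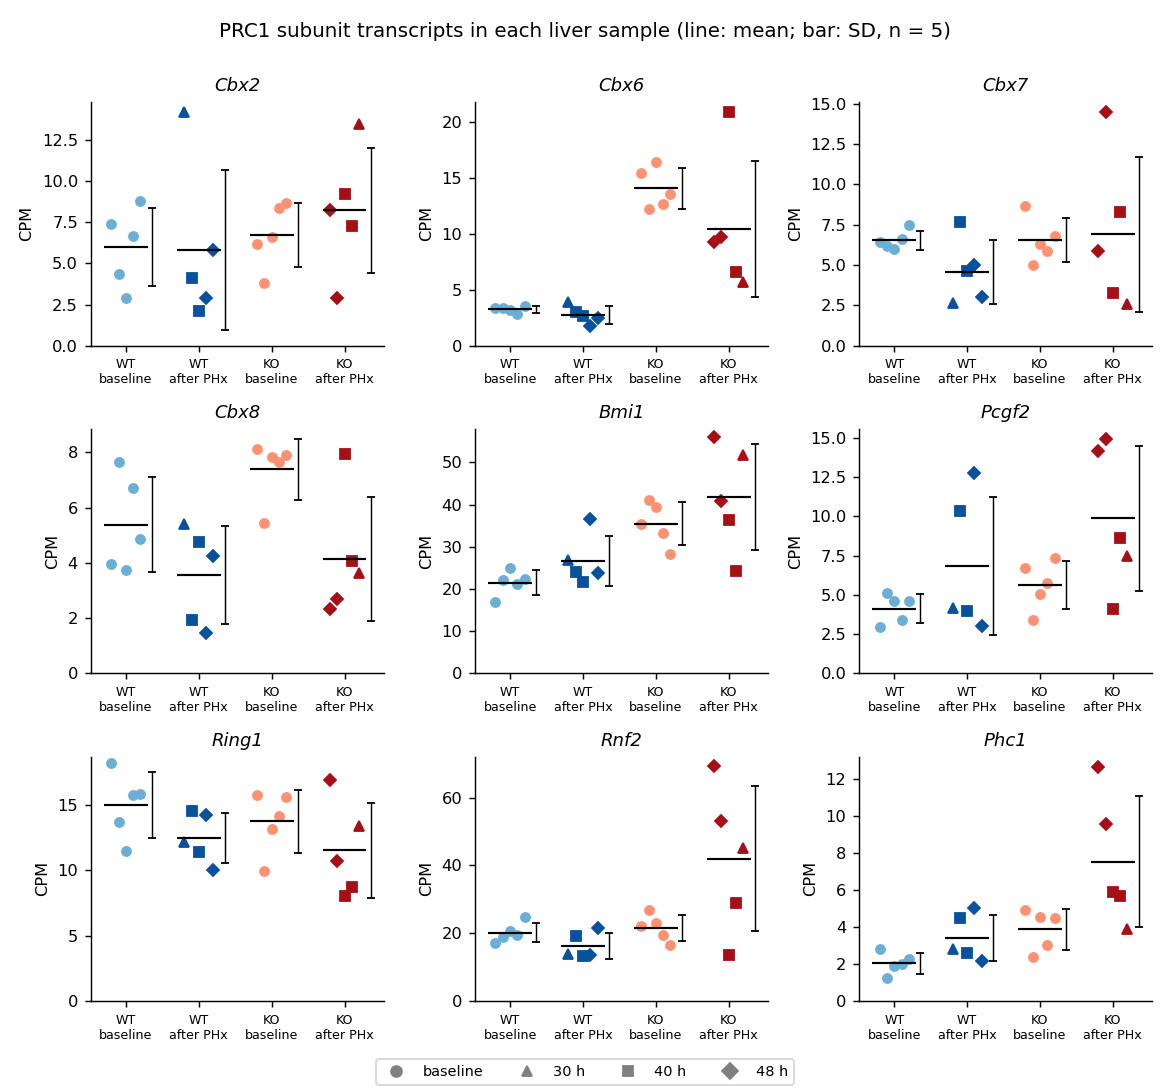
CPM of each PRC1 subunit gene (y axis, starting at 0) in each of the 20 samples, by group (x axis), with a line for the mean and a bar for the SD of 5 samples; the marker shape gives the time after PHx. Cbx6 lies between 12.3 and 16.4 CPM in KO at baseline, apart from WT, and Rnf2 spreads from 13.7 to 69.2 CPM in KO after PHx.

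The catalytic RING subunits behaved differently from each other after PHx. Rnf2 (ENSMUSG00000026484, protein coding, chr1:151458004-151500955, minus strand) had 17.03, 18.95, 20.7, 19.6 and 24.6 CPM in WT mice 1 to 5 at baseline and 13.95, 19.2, 13.2, 13.7 and 21.5 CPM in the same mice after PHx. In KO mice 7, 8, 10, 11 and 12 it had 22, 26.7, 22.97, 19.4 and 16.4 CPM at baseline and 69.2, 53.1, 13.7, 28.96 and 45.1 CPM after PHx. The baseline groups overlapped, and after PHx 4 of the 5 KO samples lay above every WT sample while KO mouse 10 lay at the lower end of the WT range. Means after PHx were 42.0 ± 21.5 CPM (SD, n = 5) in KO and 16.3 ± 3.81 CPM (SD, n = 5) in WT. Between genotypes the log2 difference was 1.37 after PHx (SE 0.30, edgeR adjusted p 0.00231). At baseline it was 0.09 (SE 0.29, edgeR adjusted p 0.868). Rnf2 was called after PHx in each of the 10 fits that left out 1 sample, with values of 1.14 to 1.59.

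Within the same mouse, Rnf2 was higher after PHx than at baseline in 4 of 5 KO mice and in 1 of 5 WT mice. The changes in log2 CPM were 1.65, 0.99, 0.58 and 1.46 in KO mice 7, 8, 11 and 12 and -0.75 in KO mouse 10. They ran from -0.65 to 0.02 in the WT mice. After PHx against baseline, 2 of the 9 genes were called higher in KO (Rnf2 and Phc1) and none lower, with 17.5% of all genes called higher and 12.1% lower. Rnf2 rose by a log2 of 0.97 (SE 0.29, edgeR adjusted p 0.0195) in KO. With the mouse as a block its change was 0.81 (edgeR adjusted p 0.0618) and it was no longer called. Over all genes that fit called 1709 higher and 1875 lower, against 2561 and 1770 without the block. The call also ended without KO replicate 7 after PHx (0.73, edgeR adjusted p 0.0686), without KO replicate 8 after PHx (0.85, edgeR adjusted p 0.0558), without KO replicate 12 at baseline (0.88, edgeR adjusted p 0.0517) and when only the KO samples were fitted (0.98, edgeR adjusted p 0.0674). Without KO replicate 10 after PHx it was 1.19 and called, as were 4 other members, Phc1 and Pcgf2 higher and Cbx6 and Cbx8 lower, with 3404 genes higher and 2633 lower in all against 2561 and 1770. Without KO replicate 7 after PHx these counts were 1942 and 1098, and without KO replicate 8 after PHx 1789 and 1173.

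In WT none of the 9 genes was called after PHx against baseline, with edgeR or with DESeq2, and 1 had an unadjusted p under 0.05 (Phc1), while 11.4% of all genes were called higher and 8.68% lower. The 1273 genes called lower became 755 without WT replicate 4 after PHx. Rnf2 changed there by -0.31 (SE 0.29, edgeR adjusted p 0.490). The test of the difference between the responses to PHx called 0 of the 9 genes with edgeR and 0 with DESeq2, and 1 (Rnf2) had an unadjusted p under 0.05. Of all genes 0.164% (24) were called with a higher and 0.225% (33) with a lower response in KO by edgeR, and 192 and 184 by DESeq2. For Rnf2 the response was higher in KO by a log2 of 1.28 (SE 0.41, edgeR adjusted p 0.185), with a 95% interval of 0.41 to 2.14. Without KO replicate 10 after PHx the difference was 1.49 (edgeR adjusted p 0.0123), and the calls over all genes rose to 412 higher and 296 lower. Without any 1 of the other samples there were 6 to 37 higher and 15 to 49 lower. With the mouse as a block the difference called 0 of the 9 genes, and 1 gene higher and 2 lower over all. KO replicate 10 had the lowest Rnf2 and the highest summed G2M and S phase levels of the 5 KO samples after PHx. The 2 KO samples with most Rnf2, replicates 7 and 8, had 603.1 and 589.7 CPM of summed cholangiocyte markers. Replicates 11, 10 and 12 had 309.4, 202.9 and 136.3 CPM, so replicate 12, with 45.1 CPM of Rnf2, had the lowest sum. The part of either difference in the Rnf2 values was not tested.

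**Figure D3:**
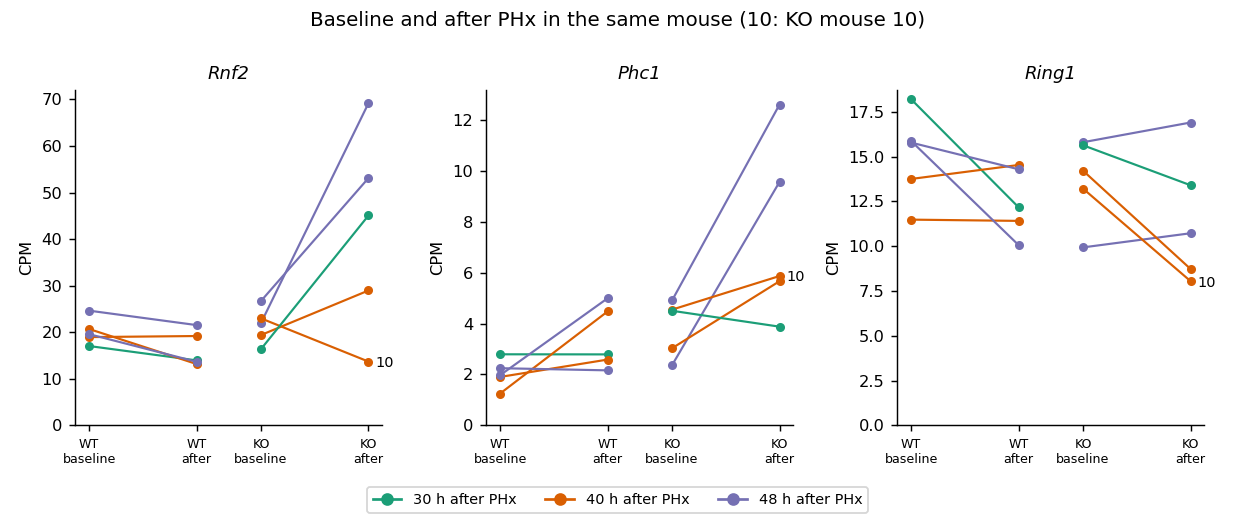
CPM (y axis, starting at 0) of Rnf2, Phc1 and Ring1 at baseline and after PHx, with a line joining the samples of 1 mouse and a colour for the time after PHx. Rnf2 rises in 4 of 5 KO mice and not in KO mouse 10, while in WT the largest rise is 0.02 in log2 CPM.

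Ring1 (ENSMUSG00000024325, protein coding, chr17:34020792-34024680, minus strand), the paralog of Rnf2, had 15.01 ± 2.53 CPM in WT and 13.8 ± 2.39 CPM in KO at baseline, and 12.5 ± 1.91 CPM in WT and 11.6 ± 3.64 CPM in KO after PHx (SD, n = 5 each). All 4 groups overlapped, from 8.05 to 18.2 CPM over the 20 samples. The log2 fold change of KO against WT was -0.13 at baseline (95% interval -0.56 to 0.31, edgeR adjusted p 0.725) and -0.11 after PHx (-0.54 to 0.32, edgeR adjusted p 0.731). These intervals do not hold the 1.37 seen for Rnf2 after PHx, and the sign of both values turned with library size as the only scaling (0.36 and 0.26, neither called). Per length of exon, Rnf2 made up 51.5% ± 6.14 (SD, n = 5) of the sum of Ring1 and Rnf2 in WT at baseline, 50.3% ± 7.51 in WT after PHx and 55.0% ± 8.49 in KO at baseline. In KO after PHx the share was 71.6% ± 8.57, with 76.3%, 79.6%, 57.2%, 72.3% and 72.6% in mice 7, 8, 10, 11 and 12. The highest WT sample after PHx had 62.7%, so that the share in 4 of the 5 KO samples lay above the WT range.

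Of the PCGF subunits, which partner the RING protein and raise its activity, Bmi1 was higher in KO at both stages and Pcgf2 was not called. Bmi1 (ENSMUSG00000026739, protein coding, chr2:18677018-18686629, plus strand) had 17.03, 22.2, 25.1, 21.1 and 22.3 CPM in WT mice 1 to 5 at baseline against 35.4, 41.2, 39.4, 33.2 and 28.3 CPM in KO mice 7, 8, 10, 11 and 12. The lowest KO sample at baseline lay above the highest WT sample. After PHx the WT mice had 26.9, 23.96, 21.6, 36.6 and 23.9 CPM and the KO mice 55.9, 40.9, 36.5, 24.3 and 51.7 CPM. These groups overlapped through WT mouse 4 and KO mouse 11. KO exceeded WT by a log2 of 0.72 at baseline (SE 0.20, edgeR adjusted p 0.0183), and by 0.65 after PHx (SE 0.20, edgeR adjusted p 0.0224).

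The Bmi1 call at baseline ended without WT replicate 1 (0.65, edgeR adjusted p 0.0528). After PHx it ended without WT replicate 3 (0.58, edgeR adjusted p 0.0582), WT replicate 5 (0.61, 0.0536), KO replicate 7 (0.56, 0.0547) or KO replicate 12 (0.56, 0.0535), without the 30 h samples (0.57, 0.0803) and with only the samples compared (0.67, 0.120). Bmi1 did not differ beyond the threshold between baseline and PHx in either genotype, with log2 changes of 0.30 in WT (edgeR adjusted p 0.301) and 0.24 in KO (edgeR adjusted p 0.375). Pcgf2 (ENSMUSG00000018537, protein coding, chr11:97688823-97700497, minus strand) had 4.13 ± 0.93 CPM in WT and 5.65 ± 1.52 CPM in KO at baseline, and 6.86 ± 4.40 CPM in WT and 9.87 ± 4.60 CPM in KO after PHx (SD, n = 5 each). Its log2 fold change of KO against WT was 0.45 at baseline (95% interval -0.37 to 1.28) and 0.53 after PHx (-0.29 to 1.34), with edgeR adjusted p-values of 0.472 and 0.346. An increase of the size seen for Bmi1 lies within both intervals. From baseline to after PHx Pcgf2 changed by 0.81 in KO (edgeR adjusted p 0.123), and without KO replicate 10 after PHx by 1.00 (edgeR adjusted p 0.0426), which was called. Bmi1 made up 82.4% ± 2.18 of the sum of Bmi1 and Pcgf2 per length in WT at baseline and 84.5% ± 5.29 in KO, and 78.9% in both genotypes after PHx (SD 8.88 in WT and 8.21 in KO, n = 5).

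Among the CBX subunits, which carry the chromodomain that binds methylated H3, Cbx6 showed the largest difference of the 9 genes at both stages. Cbx6 (ENSMUSG00000089715, protein coding, chr15:79823896-79834688, minus strand) had 3.38, 3.35, 3.19, 2.80 and 3.53 CPM in WT mice 1 to 5 at baseline. In KO mice 7, 8, 10, 11 and 12 it had 15.5, 12.3, 16.4, 12.7 and 13.5 CPM. The groups were far apart, with the lowest KO sample above the highest WT sample by more than the range of either group. After PHx Cbx6 had 3.92, 3.05, 2.70, 1.74 and 2.44 CPM in the WT mice and 9.23, 9.71, 20.9, 6.59 and 5.73 CPM in the KO mice. The 2 groups did not overlap here either, and KO replicate 10 stood apart from the other 4 KO samples. KO exceeded WT by a log2 of 2.11 at baseline (SE 0.30, edgeR adjusted p 7.84e-05), and by 1.91 after PHx (SE 0.30, edgeR adjusted p 0.000129). Cbx6 was called in all 10 fits that left out 1 sample at each stage, from 2.05 to 2.16 at baseline and from 1.49, without KO replicate 10, to 2.07 after PHx. Groups that did not overlap were common over all genes at baseline, where 2294 of 14661 were higher and 1794 lower in every KO than in every WT sample. After PHx these counts were 1033 and 435, and Cbx6 was the only one of the 9 genes whose groups did not overlap there.

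The change of Cbx6 from baseline to after PHx was -0.23 in WT (edgeR adjusted p 0.620) and -0.43 in KO (edgeR adjusted p 0.252), in log2. It was lower after PHx in 4 of 5 mice of each genotype, with KO mouse 10 and WT mouse 1 as the exceptions. Without KO replicate 10 after PHx the change in KO was -0.85 (edgeR adjusted p 0.00684) and was called. The stellate, macrophage and G2M phase sums given above, and those of the endothelial markers (299.3 to 355.4 CPM in KO against 248.2 to 289.3 in WT) and S phase genes (96.73 to 185.9 against 76.93 to 85.73), were also above WT in every KO sample at baseline, while the hepatocyte sum was below, and their part in the Cbx6 and Bmi1 differences was not tested.

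Cbx7, Cbx2 and Cbx8 passed the threshold neither at baseline nor after PHx. Cbx7 (ENSMUSG00000053411, protein coding, chr15:79915807-79971119, minus strand) had a mean of 6.54 CPM in WT (SD 0.58, n = 5) and 6.53 CPM in KO (SD 1.37, n = 5) at baseline. Its log2 fold change was 0.00 at baseline (95% interval -0.78 to 0.78, edgeR adjusted p 1.00) and 0.59 after PHx (-0.19 to 1.37, edgeR adjusted p 0.263). In KO after PHx Cbx7 ran from 2.56 to 14.5 CPM, so that the spread between mice was large against the difference. Cbx2 (ENSMUSG00000025577, protein coding, chr11:119022962-119031270, plus strand) had log2 fold changes of 0.16 at baseline (-0.80 to 1.12, edgeR adjusted p 0.849) and 0.50 after PHx (-0.46 to 1.45, edgeR adjusted p 0.463). Its highest values, 14.2 CPM in WT and 13.5 CPM in KO, were in the 30 h sample of each genotype. Cbx8 (ENSMUSG00000025578, protein coding, chr11:119036305-119040969, minus strand) had 5.39 ± 1.72 CPM in WT and 7.39 ± 1.10 CPM in KO at baseline (SD, n = 5), and its log2 fold change was 0.45 (-0.31 to 1.22, edgeR adjusted p 0.434). After PHx it had 3.56 ± 1.77 CPM in WT and 4.13 ± 2.24 CPM in KO (SD, n = 5), and the log2 fold change was 0.21 (-0.56 to 0.98, edgeR adjusted p 0.712). Cbx8 was the only gene of the 9 whose change from baseline to after PHx in KO was below -0.5, at -0.84 (SE 0.37, edgeR adjusted p 0.0893), and without KO replicate 10 after PHx it was -1.22 (edgeR adjusted p 0.0112).

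Phc1 (ENSMUSG00000040669, protein coding, chr6:122317731-122340561, minus strand), the polyhomeotic subunit, was among the lowest of the 9 per length in WT at both stages and in KO at baseline. In KO after PHx it ranked 6 of the 9, and it was higher there than in WT. It had 2.80, 1.25, 1.90, 1.97 and 2.25 CPM in WT mice 1 to 5 at baseline and 4.91, 2.37, 4.55, 3.03 and 4.51 CPM in KO mice 7, 8, 10, 11 and 12. These groups overlapped through KO mouse 8. After PHx it had 2.79, 4.48, 2.59, 5.00 and 2.16 CPM in the WT mice and 12.6, 9.58, 5.87, 5.67 and 3.88 CPM in the KO mice. Here 4 of the 5 KO samples lay above every WT sample, and the 30 h sample of KO mouse 12 did not. The log2 fold change of KO against WT was 1.15 (SE 0.34, edgeR adjusted p 0.0183) after PHx. At baseline it was 0.93 (SE 0.34, edgeR adjusted p 0.0690) and missed the threshold, which it passed with DESeq2 (0.96, adjusted p 0.0297), with only the samples compared (0.96, edgeR adjusted p 0.0127), without KO replicate 8 (1.07, edgeR adjusted p 0.0468) and with library size as the only scaling (1.43, edgeR adjusted p 0.00778). The call after PHx ended without KO replicate 7 (0.91, edgeR adjusted p 0.0572) and with only the samples compared (1.16, edgeR adjusted p 0.0859).

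From baseline to after PHx Phc1 rose in KO by a log2 of 0.96 (SE 0.34, edgeR adjusted p 0.0383). With the mouse as a block this was 0.89 (edgeR adjusted p 0.105) and not called. Nor was it called with no filter on low counts (0.91, edgeR adjusted p 0.0696) or with only the KO samples fitted (0.96, edgeR adjusted p 0.0671). It also ended in 6 of the 10 fits that left out 1 KO sample (KO replicates 8, 10, 11 and 12 at baseline and 7 and 8 after PHx), with values from 0.71 to 1.02 and edgeR adjusted p-values from 0.0547 to 0.126. In WT the change was 0.74 (SE 0.34, unadjusted p 0.0417, edgeR adjusted p 0.131), so that the response differed between genotypes by 0.21 (95% interval -0.78 to 1.21, edgeR adjusted p 0.892). Phc1 was higher after PHx in 4 of 5 KO mice and in 3 of 5 WT mice. Of the summed Phc1, Phc2 and Phc3 per length, Phc1 made up 6.78% ± 1.94 in WT and 10.8% ± 2.32 in KO at baseline and 8.57% ± 2.02 and 11.1% ± 4.97 after PHx (SD, n = 5). Phc2 held the largest share in every group, from 72.1% to 81.0% on average.

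The samples after PHx mix 3 times, and the genotypes were compared within 40 h and within 48 h with 2 samples each, in a model that gave every genotype a mean at every time. At 40 h 1 of the 9 genes, Cbx6, was called higher in KO (2.25, SE 0.40, edgeR adjusted p 0.00295) and none lower, with 8.61% of all genes called higher and 4.68% lower. Without KO replicate 10 the Cbx6 difference was 1.19 (edgeR adjusted p 0.0144). Leaving out 1 sample at one time leaves 1 in its group, which is then assumed to vary like the other groups. The counts over all genes, 1263 higher and 686 lower, fell to 144 and 76 without WT replicate 2 and to 469 and 149 without KO replicate 11. At 48 h 4 were called higher and none lower, with 13.7% of all genes higher and 10.7% lower. These counts over all genes, 2002 and 1565, were 1396 and 688 without KO replicate 7, 1237 and 1168 without KO replicate 8, 1285 and 862 without WT replicate 5 and 1986 and 2539 without WT replicate 4. These were Cbx6 (2.18, SE 0.40, edgeR adjusted p 0.00167), Rnf2 (1.80, SE 0.34, edgeR adjusted p 0.00208), Phc1 (1.63, SE 0.47, edgeR adjusted p 0.0203) and Cbx7 (1.34, SE 0.47, edgeR adjusted p 0.0460). Rnf2 at 40 h had 19.2 and 13.2 CPM in WT against 13.7 and 28.96 in KO (0.40, edgeR adjusted p 0.434), and at 48 h 13.7 and 21.5 CPM in WT against 69.2 and 53.1 in KO. At 30 h, with 1 sample per genotype and no test, Rnf2 had 13.95 CPM in WT and 45.1 in KO, and Cbx6 3.92 and 5.73. Cbx7 at 48 h rested on KO mouse 8, with 14.5 CPM against 5.84 in KO mouse 7 and 5.00 and 3.02 in WT. It was not called without KO mouse 8 (0.47, edgeR adjusted p 0.543) or WT mouse 5 (0.94, edgeR adjusted p 0.265), with relative log expression (RLE) scaling (1.31, edgeR adjusted p 0.0505) or with no filter on low counts (1.25, edgeR adjusted p 0.0720). Phc1 was not called at 48 h without KO mouse 7 (1.39, edgeR adjusted p 0.105) or WT mouse 5 (1.07, edgeR adjusted p 0.180). Without WT mouse 4, Bmi1 (0.91, edgeR adjusted p 0.0440) and Pcgf2 (2.15, edgeR adjusted p 0.0166) passed the threshold at 48 h as well, with a single WT sample left, from 0.68 (edgeR adjusted p 0.0740) and 0.88 (edgeR adjusted p 0.271). The 20 G2M phase genes had a median log2 fold change of KO against WT of 4.05 at 40 h, with none called (14 had an unadjusted p under 0.05), and of -4.79 at 48 h, with 8 called lower. Of the 20 S phase genes 15 were called higher at 40 h and 2 lower at 48 h, and the part of this in the values at each time was not tested.

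For the 4 genes called in KO against WT, the genes with the nearest pattern over the 20 samples were found by the root mean square difference of centred log2 CPM among 11932 protein-coding genes. For Cbx6 these were Sgce, Evl and Lmo2, at 0.42, 0.43 and 0.44, where Cbx6 itself varied by 1.06 about its mean. All 3 were called higher in KO at baseline, by log2 fold changes of 1.49, 1.95 and 1.72. For Bmi1 they were Sdcbp, Rnf44 and Atp1b3 (0.25, 0.27 and 0.29, against 0.45 for Bmi1 about its mean), of which Sdcbp was called higher in KO at baseline (0.47, edgeR adjusted p 0.0408) and none after PHx with edgeR, at log2 fold changes of 0.22, 0.55 and 0.41. For Rnf2 they were Wipi1, Zdhhc20 and Vezf1 (0.27, 0.27 and 0.29, against 0.63), all called higher in KO after PHx, by 1.16, 1.04 and 0.77. For Phc1 they were Plscr3, Acvr1b and Gipc1 (0.38, 0.38 and 0.38, against 0.78), of which Plscr3 and Gipc1 were called higher in KO after PHx, by 1.06 and 1.08, and at baseline, by 0.93 and 0.95. The nearest genes were chosen on the same KO and WT values, so their calls follow in part from that choice and add no support. The points share the libraries and their scaling, and no test was made.

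Some of the 9 genes are neighbours in the genome. Cbx2 and Cbx8 lie 5035 bases apart on opposite strands, and neither passed the threshold between genotypes. Cbx6 and Cbx7 lie 81119 bases apart on the same strand of chromosome 15, and only Cbx6 was called at both stages. Next to Cbx7, Pdgfb, which encodes a growth factor for mesenchymal cells, was higher in KO by 1.72 at baseline (edgeR adjusted p 0.0114) and 1.95 after PHx (edgeR adjusted p 0.00343). Commd3, upstream of Bmi1 on the same strand at a distance of 787 bases, had log2 fold changes of 0.12 and -0.23, neither called. M6pr, 51 bases from Phc1 on the other strand, had -0.06 and -0.37, neither called. Fam129a, 70231 bases from Rnf2, was higher in KO by 1.67 (edgeR adjusted p 0.0357) and 3.16 (edgeR adjusted p 0.000414). Rnf2 shares 158 exon bases with Trmt1l and Cbx7 shares 100 with Apobec3, both on the other strand. How the counting treated strand is not given in the sources used here, so reads in those bases cannot be assigned. Trmt1l was not called (-0.32 and -0.84), and Apobec3 was called higher in KO after PHx (2.08, edgeR adjusted p 0.0149). Npcd shares 563 exon bases with Cbx6 and had no count in any sample, and Nptxr, 19130 bases from Cbx6 on the same strand, was called higher in KO after PHx (2.00, edgeR adjusted p 0.00558) and not at baseline (1.21, edgeR adjusted p 0.123). The tested genes beside Pcgf2 (Cisd3 and Psmb3) and Ring1 (H2-K1) were not called, with log2 fold changes from -0.35 to 0.48.

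Further subunits of canonical PRC1 were counted from a list of 5, of which 4 could be tested. Of all genes, 11.1% were called higher and 4.89% lower at baseline, and 16% and 8.20% after PHx. At baseline 1 of the 4 was called higher in KO and none lower. This was Scml2, with no count in WT at baseline and 74 counts over the 5 KO samples, at least 18.9-fold higher against a floor of 3 counts over the WT group. In WT it was called higher after PHx than at baseline (edgeR adjusted p 0.0300). Between genotypes after PHx it was not called (1.04, edgeR adjusted p 0.498). After PHx 2 were called higher and none lower: Phc2, a paralog of Phc1, by 1.06 (SE 0.34, edgeR adjusted p 0.0272), and Scmh1, a SAM domain partner of PRC1, by 1.05 (SE 0.26, edgeR adjusted p 0.00658). Phc2 lost its call without WT replicate 1 or 5 or KO replicate 7 or 8 after PHx, without the 30 h samples, with a term for time and with only the samples compared, at log2 fold changes of 0.77 to 1.07 with edgeR adjusted p-values from 0.0692 to 0.157. The Phc2 value was -0.60 at 40 h (edgeR adjusted p 0.134) and 1.93 at 48 h (edgeR adjusted p 0.000292). Scmh1 lost its call with only the samples compared (1.09, edgeR adjusted p 0.0784). Phc3 was not called (-0.31 at baseline and -0.30 after PHx). The median of the 4 was 0.40 at baseline and 1.04 after PHx.

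Of 25 genes of variant PRC1, 1 was called higher and none lower in KO at baseline, and 3 higher and 1 lower after PHx. Of all genes, 11.1% were called higher and 4.89% lower at baseline, and 16% and 8.20% after PHx. At 40 h 1 of the 25 was called higher and none lower, beside 8.61% and 4.68% of all genes. At 48 h 6 were called higher and none lower, beside 13.7% and 10.7%. The median log2 fold change of the list was -0.06 and 0.15, against 0.45 and 0.59 for the 9 genes described here. No test was made between the lists, which were chosen with earlier results of these data known. Auts2, a subunit of the variant complexes with PCGF3 or PCGF5, had 0.19 CPM in WT (SD 0.16, n = 5) and 2.84 CPM in KO (SD 0.28, n = 5) at baseline, and was higher by 3.86 (edgeR adjusted p 0.000113) at baseline and 5.79 (edgeR adjusted p 2.38e-06) after PHx. Bcor, of the complex with PCGF1, was higher after PHx by 1.31 (edgeR adjusted p 0.00750). Rybp, which takes the place of a CBX, was higher after PHx by 0.84 (edgeR adjusted p 0.00714), a call that ended with only the samples compared (0.87, edgeR adjusted p 0.0650) and without the 30 h samples (0.61, edgeR adjusted p 0.0507). Skp1a, an adaptor of the PCGF1 complex, was lower after PHx (-0.49, edgeR adjusted p 0.0342), a call that remained in only 3 of the 10 fits that left out 1 sample (WT replicate 2 or 4 or KO replicate 10), and it is named here after its value was seen. None of the 7 tested genes of enzymes that remove ubiquitin from H2A and of their partner proteins was called with edgeR. Of these, 1 at baseline and 2 after PHx had an unadjusted p under 0.05.

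In PRC2 itself, 1 of 13 genes was called higher and 1 lower in KO at baseline, beside 11.1% and 4.89% of all genes. After PHx 2 were called higher and 1 lower, beside 16% and 8.20%. The lower one was Eed at both stages (-1.57 and -1.99). Epop, a PRC2 accessory subunit, was higher by 1.52 (edgeR adjusted p 0.0122) and 2.53 (edgeR adjusted p 0.000158), and Jarid2, another accessory subunit, by 1.25 (edgeR adjusted p 0.00443) after PHx, a call that ended with only the samples compared (1.28, edgeR adjusted p 0.0620). Jarid2 was not called at baseline (-0.14), and its difference of PHx responses was not called either (edgeR adjusted p 0.150). The core subunit genes Ezh1 (0.25 at baseline, 0.42 after PHx), Ezh2 (0.90 and -0.16) and Suz12 (-0.36 and -0.06) were not called at baseline or over all samples after PHx. At 40 h 4 of the 13 genes were called higher and 1 lower, beside 8.61% and 4.68% of all genes. At 48 h 1 was called higher and 1 lower, beside 13.7% and 10.7%. Neither Cbx1 nor Cbx5, which encode HP1 proteins with a chromodomain for another methyl mark, passed the threshold at baseline or over all samples after PHx, and Cbx1 was called lower in KO at 48 h (-1.01, edgeR adjusted p 0.0290).

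**Figure D4:**
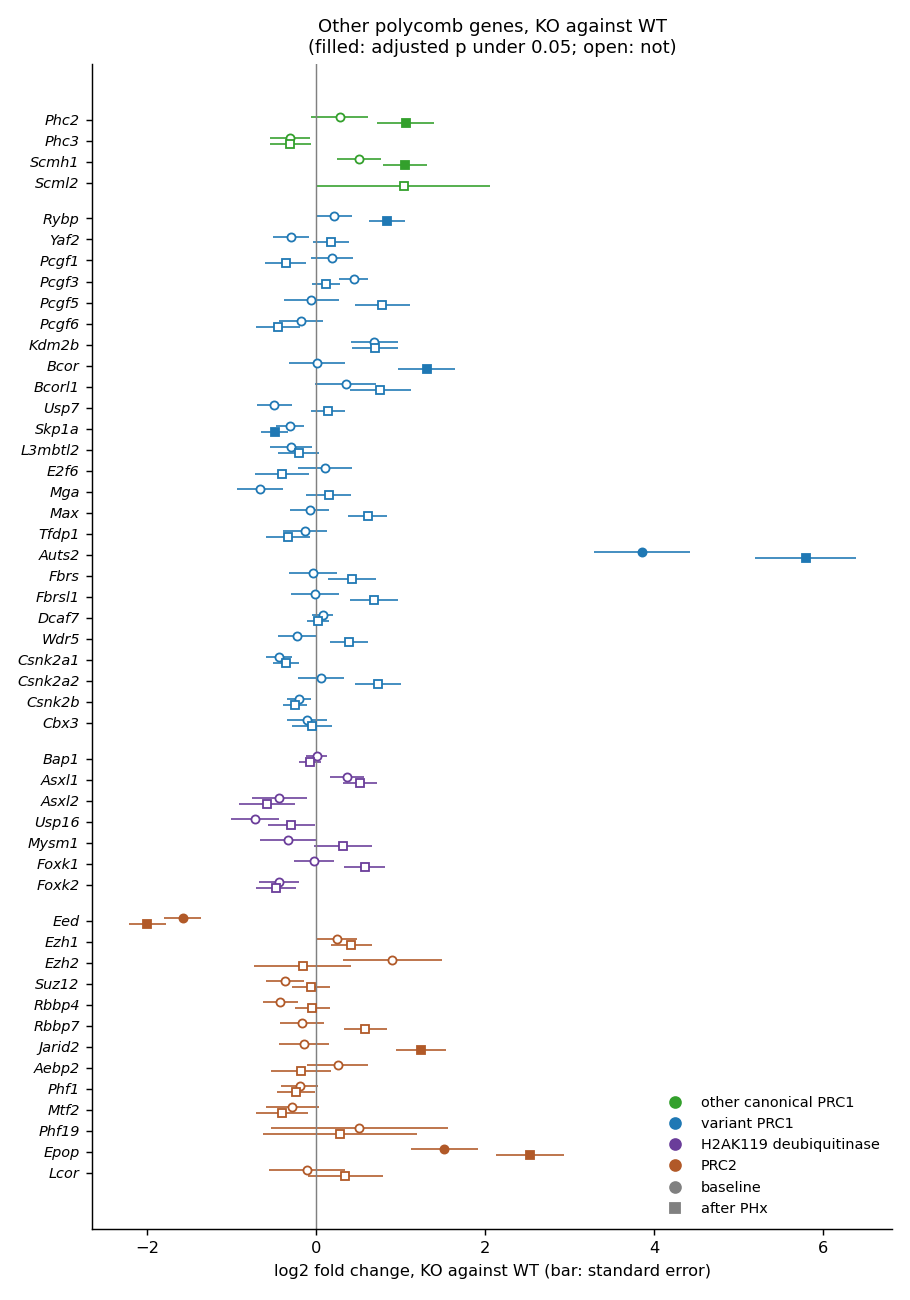
Log2 fold change of KO against WT (x axis) for further genes of canonical PRC1, variant PRC1, the H2A deubiquitinases with their partner proteins, and PRC2 (y axis), coloured by list, at baseline (circles) and after PHx (squares). Bars give the standard error, and filled symbols have an adjusted p under 0.05. Scml2 at baseline is left out because it had no count in WT, Auts2 lies farthest to the right at 3.86 and 5.79, and Eed is the only filled gene of PRC2 on the left.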

How the data were processed

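PolyA RNA from 20 liver samples was sequenced from 1000 ng of RNA with an integrity score above 8, per the labels' protocols. The deposited values are raw counts of uniquely mapped reads per Ensembl gene on mm10, per the series' design text. That text names fastp 0.20.0 for trimming, and the submitters' processing notes list Trimmomatic 0.36 and FastQC 0.11.5. The aligner, counter, annotation release and strand setting are not given in the sources used here. Of 46603 identifiers 46091 matched GENCODE M21, and 512 had no name.

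Genes were filtered with filterByExpr, scaled by TMM and tested in edgeR 4.0.16 (R 4.3.3) by the quasi-likelihood test, with a mean for each of the 4 groups over 20 samples, or for each genotype and time, and Benjamini-Hochberg adjustment over 14661 genes. The code was tested on simulated data. The named genes are the 9 listed, the 3 nearest in pattern for each called member, their neighbours, Phc2, Phc3, Scmh1, Eed, Ezh1, Ezh2 and Suz12, and up to 3 called genes with the largest change in each other polycomb list. 1 gene of the lists is not reported here. The members and lists were chosen with earlier results of these data known.

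Baseline and later samples come from the same mouse by the labels' mouse numbers. WT baseline replicate 1 carries no number and was taken as WT mouse 1 by elimination. Correlations of deviations from the group means within a mouse ran from -0.0549 to 0.152 over 10 mice, with 2 over 0.1. No 2 libraries held identical counts. Alternatives were other scalings, filters and sample sets, DESeq2 1.42.0, the mouse as a block, and each replicate left out.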

Additional observations from a re-analysis of the deposited data

Results flagged for a closer look

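Among 36 sets of 5 samples (9 genes in 4 groups), 2 held a sample far from the others by Dixon's test, and chance flags about 1 in 20. Cbx6 in KO replicate 10 after PHx, at 20.86 CPM, lay above the nearest of the other 4 KO samples, at 9.708 CPM. Cbx8 in KO replicate 8 at baseline, at 5.451 CPM, lay below the nearest, at 7.644 CPM.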

How the results depend on the processing

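Of 1435 single-gene values computed under another setting, 1361 kept their side of the threshold and, where called, their direction, 53 lost the call, 21 gained it and 0 called values changed sign. Counted among the first are 86 values that changed sign and were called under neither setting. Leaving out 1 replicate gave 1 to 3 members called at baseline, beside 1234 to 1514 genes higher and 309 to 724 lower in all. After PHx it gave 2 to 4, beside 1938 to 2975 higher and 757 to 2151 lower. For PHx in KO it gave 0 to 5, beside 1789 to 3404 higher and 1098 to 2633 lower. For the difference of responses it gave 0 to 1, beside 6 to 412 higher and 15 to 296 lower. With only the samples compared, 2 members were called after PHx and 0 for PHx in KO, beside 1826 genes higher and 1052 lower in all. With no filter on low counts 1 was called for PHx in KO, beside 2390 and 1458. With library size as the only scaling 2 were called for PHx in WT, beside 3796 genes higher and 582 lower in all, and 3 at 40 h, beside 2904 and 208. That scaling moved the median log2 fold change of all genes to 0.45 at baseline, with 3521 genes higher and 113 lower, and to 0.37 after PHx, with 3897 higher and 296 lower. With only the samples compared, 2846 genes were called higher and 2396 lower at baseline, and 1127 and 218 after PHx. For these settings the cause was not tested. A fixed mouse term cannot be fitted between genotypes, and a random one was not run. For PHx within a genotype the replicate block called 0 members in KO, also without WT mouse 1 (0), and the pairing changed no other call among the 9 members. Over all genes the block called 1094 higher and 1225 lower for PHx in WT, against 1677 and 1273. Counts limit the members at a few CPM.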
